A study of Rattus norvegicus with 4 samples.

Results

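Signals of the Frizzled receptor genes Fzd1 and Fzd2 and of other Wnt pathway genes were compared between 2 rat prostate tumour cell lines, G and MAT-LyLu. The set lists 9 genes (Fzd1, Fzd2, Wnt4, Wnt5a, Sfrp4, Ctnnb1, Apc, Dvl1 and Gsk3b), and its members are all probe sets that the platform annotation assigns to them. Of the 9 genes, 5 had a probe set, with 8 probe sets among the 8799 of the array. They were Fzd1, Fzd2 and Sfrp4 with 1 probe set each, Gsk3b with 2 and Apc with 3. Wnt4, Wnt5a, Ctnnb1 and Dvl1 were not analysed here. The list was chosen on earlier values of this same contrast, in which Fzd1 and Fzd2 were lower in MAT-LyLu. The differences of the members are therefore given as a description, and their calls support nothing by themselves.

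Both lines descend from the Dunning R3327 rat prostatic tumour. G, the control, is labelled non-metastatic, and MAT-LyLu is labelled highly metastatic; no treatment, age or time is given for either. Biotinylated cRNA from total RNA of each line was hybridised to 2 Affymetrix arrays per line, 4 arrays in all. Arrays of a line are labelled as duplicates, with no mention of separate cultures. The p-values, SEs and intervals measure only the spread between such duplicates, which may be technical. In limma that spread is in part shared over all probe sets tested.

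Wnt proteins are secreted ligands that bind Frizzled receptors, which are membrane proteins that pass through the membrane several times, together with co-receptors of the LRP family. In the canonical branch, binding recruits Dishevelled proteins and stops a complex of Axin, Apc, the kinase Gsk3b and casein kinase 1 from marking beta-catenin for breakdown. Stable beta-catenin then acts with TCF/LEF factors on target genes, while other branches signal through small GTPases, JNK or calcium. In the prostate the pathway is known for its part in duct growth and in tumour progression.

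Array medians ran from 2998 to 3156 signal units. The background level of each array, the 95th percentile of 23 control probe sets for bacterial, yeast or mouse genes, ran from 1891 to 2311. A signal under that level is a bound and not a measurement, and a signal above it does not by itself show that a gene is expressed. Of 5 measured prostate luminal markers, such as Pbsn, Sbp, Svs4 and Tgm4, none was above background on both arrays of either line. Of 6 epithelial markers, 2 were above background on both G arrays and 3 on both MAT-LyLu arrays; Epcam was above it on none. Of 7 fibroblast markers, 7 were above it on both G arrays and 1 on both MAT-LyLu arrays. Of 3 endothelial markers, 1 was above it on both arrays of each line, and of 5 leukocyte markers, 4 were. These were Vwf, Cd4, Cd74, Cd8a and Ptprc. Both samples are labelled as cell lines, so these signals are not read as the presence of such cells.

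The upstream sequence of Fzd1 is shown because Fzd1 was the only member with a difference of 2-fold or more whose promoter stood in the RefSeq promoter table (build GRCr8), which held 7 of the 9 genes and had no entry for Fzd2 or Sfrp4. The run covers the 250 bases before the annotated start, on the plus strand at chr4:30264824-30265073. Capitals would mark the core of the TCF/LEF motif, and there are none.

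Fzd1: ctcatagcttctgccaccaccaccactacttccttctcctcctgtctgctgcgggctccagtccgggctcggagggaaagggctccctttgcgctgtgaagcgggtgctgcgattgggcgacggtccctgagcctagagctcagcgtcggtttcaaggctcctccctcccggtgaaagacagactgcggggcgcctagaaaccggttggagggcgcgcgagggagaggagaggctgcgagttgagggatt

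The motif was searched as CTTTGA or CTTTGT on both strands of the 300-base window, from 250 bases before to 50 after the start. It was found in 31.4% of the 33469 promoters of that length. The Fzd1 and Gsk3b windows held no match and the Apc window held 1. A match is a run of letters and not a binding site. The Fzd1 window was 65.3% G and C, against a median of 51.7% over all promoters, and the Gsk3b window 34.7%.

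Among the receptors, Fzd2 had the larger difference between the lines. Its signals were 13911 and 13434 on the G arrays and 3677 and 3590 on the MAT-LyLu arrays. Both MAT-LyLu signals lay well under both G signals, and all 4 were above background. The mean was 13673 ± 337 (SD, n = 2) in G and 3633 ± 61.4 in MAT-LyLu. On the log2 scale, MAT-LyLu minus G was -1.91 (SE 0.08, 95% interval -2.09 to -1.72), or 3.75-fold lower. The 2 arrays of a line differed by 0.05 in G and 0.03 in MAT-LyLu on the same scale. Of the 6555 probe sets tested, 112 had a lower difference than Fzd2.

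Fzd1 had signals of 11830 and 9939 on the G arrays and 4292 and 4192 on the MAT-LyLu arrays. The G arrays stood apart from each other by 0.25 on the log2 scale, more than those for Fzd2, and the MAT-LyLu arrays by 0.03. All 4 signals were above background, and the lines did not overlap. The mean was 10884 ± 1337 in G and 4242 ± 70.5 in MAT-LyLu (SD, n = 2 each). The log2 difference was -1.35 (SE 0.10, 95% interval -1.59 to -1.11), which is 2.55-fold lower, and 190 probe sets tested had a lower one. The intervals of Fzd1 and Fzd2 did not overlap; the difference between the 2 receptor genes was not tested.

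**Figure D1:**
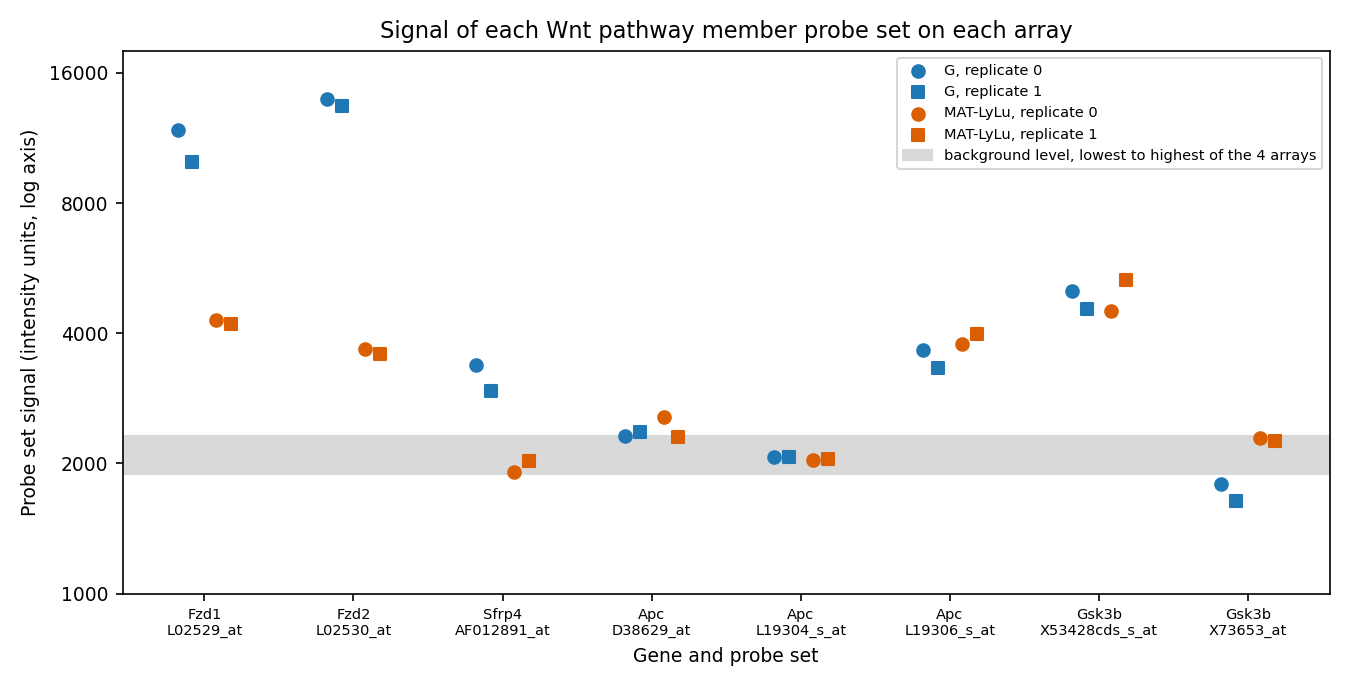
Signal of each of the 8 member probe sets on each of the 4 arrays (log axis, intensity units; circles replicate 0, squares replicate 1; blue G, orange MAT-LyLu), with the range of the background level shaded from 1891 to 2311. For Fzd1 and Fzd2 both MAT-LyLu points lie far under both G points and above the shaded band; most points of the other genes lie in or near the band or overlap between the lines.

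Fibroblast marker signals moved in the same direction as the receptors. The summed signal of the 7 measured markers was 147594 and 149870 on the G arrays and 9944 and 9840 on the MAT-LyLu arrays, while leukocyte sums overlapped between the lines, from 16609 to 17569. The sum of the 6 epithelial markers was 19216 and 17712 in G and 57681 and 58413 in MAT-LyLu. That rise came from Krt8 alone, with means of 1835 in G and 41478 in MAT-LyLu. Cldn3, Ocln, Krt18 and Krt19 did not pass the threshold, and Epcam was under background on every array. The prostate luminal sum was 7132 and 6783 in G and 6159 and 6420 in MAT-LyLu. The endothelial sums overlapped, from 5791 to 6229. The part of these differences in the values of Fzd1 and Fzd2 was not tested. In RNA from bulk cells, fewer cells of a type and less RNA per cell cannot be told apart.

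Sfrp4 encodes a secreted Frizzled-related protein, which can bind Wnt ligands outside the cell. Its signals were 3380 and 2939 in G and 1912 and 2021 in MAT-LyLu. The lines did not overlap, but only 1 of the 2 MAT-LyLu signals was above the background level of its array. The means were 3160 ± 311 and 1967 ± 77.7 (SD, n = 2 each). The log2 difference was -0.68 (SE 0.10, 95% interval -0.91 to -0.45), or 1.60-fold lower. With signals under the background level raised to it, the difference was -0.58, or 1.50-fold.

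The members of the beta-catenin destruction complex had smaller differences. Apc, the scaffold of that complex, was read by 3 probe sets. Its brightest, L19306_s_at, gave 3658 and 3324 in G and 3769 and 3984 in MAT-LyLu, above background on all 4 arrays. The MAT-LyLu arrays lay just above the G arrays, with a log2 difference of 0.15 (SE 0.09, 95% interval -0.06 to 0.36). D38629_at gave 2315 and 2364 in G and 2561 and 2298 in MAT-LyLu, and the lines overlapped (log2 difference 0.05, interval -0.16 to 0.27). L19304_s_at gave 2064 and 2074 in G and 2038 and 2049 in MAT-LyLu, with 1 array of each line above background. Its difference was -0.02 (interval -0.21 to 0.18) and turned positive under quantile or median scaling and with the background floor, and the lines did not overlap although the 4 signals spanned only 35.3 units.

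None of the 3 Apc probe sets passed the threshold in limma, and none had an unadjusted p under 0.05. Together the 3 intervals ran from -0.21 to 0.36; a p that misses the threshold does not show that the lines have the same level. Probe sets whose names end in _s_at can read related transcripts as well.

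Gsk3b, the kinase that phosphorylates beta-catenin within the complex, was read by 2 probe sets that did not give the same picture. The brighter, X53428cds_s_at, gave 5000 and 4546 in G and 4503 and 5311 in MAT-LyLu. The lines overlapped there, all 4 arrays were above background, and the log2 difference was 0.04 (SE 0.11, 95% interval -0.21 to 0.28). The dimmer, X73653_at, gave 1792 and 1640 in G and 2295 and 2250 in MAT-LyLu. Both MAT-LyLu signals lay above both G signals, but no G array and only 1 of the 2 MAT-LyLu arrays was above background. Its log2 difference of 0.40 (SE 0.09, 95% interval 0.19 to 0.62), or 1.32-fold higher, came down to 0.16 with signals raised to the background level. The call of this probe set was lost there and also without MAT-LyLu replicate 0, where the difference was 0.39.

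**Figure D2:**
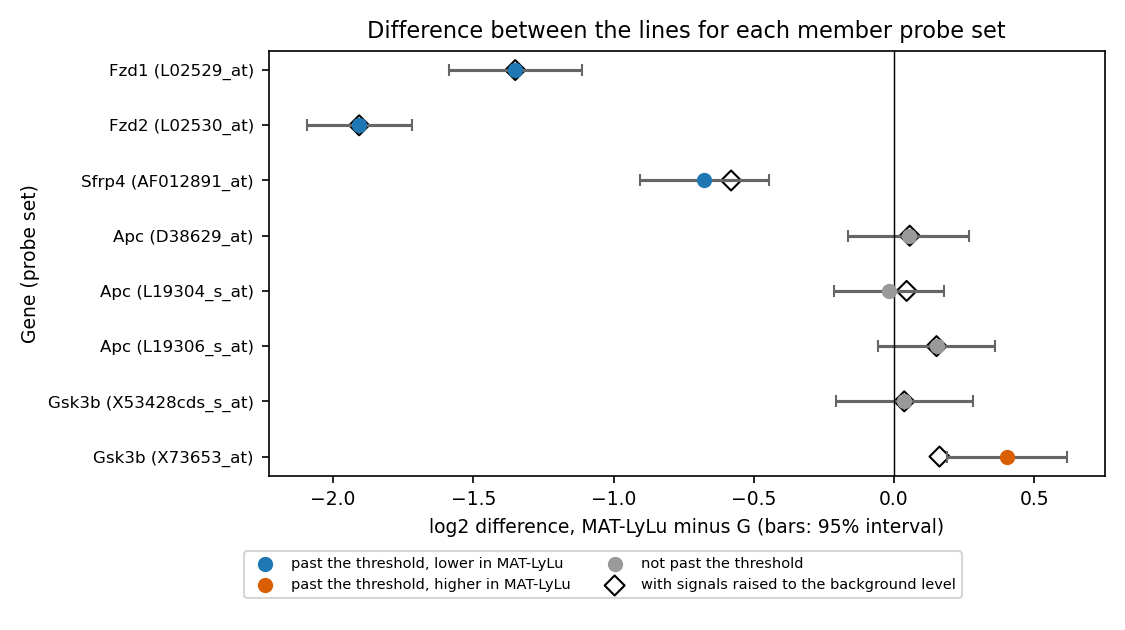
Log2 difference (MAT-LyLu minus G) of each member probe set with its 95% interval from the limma fit, coloured by its call; open diamonds give the difference with signals raised to the background level. Fzd2 at -1.91, Fzd1 at -1.35 and Sfrp4 at -0.68 lie left of zero, the 3 Apc probe sets and the brighter Gsk3b probe set have intervals that span zero, and the diamond of the dimmer Gsk3b probe set falls to 0.16.

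All 8 member probe sets passed the filter on low signals. With the threshold of 0.05 on the p-value that limma adjusted over 6555 probe sets, 3 were lower in MAT-LyLu (Fzd1, Fzd2 and Sfrp4), 1 was higher (Gsk3b, the dimmer probe set) and 4 did not pass. Over all probe sets tested, 33.7% passed: 20.1% of all were lower in MAT-LyLu and 13.6% higher. For 6 of the 8 member probe sets (4 lower, 2 higher) the 2 lines had no overlap, against 67.4% of all. The median log2 difference of the members was 0.01, against -0.03 over all probe sets, and the median of the absolute differences was 0.28 against 0.18. Because the list was made with this contrast known, nothing is read from these counts. With 2 arrays against 2, an exact permutation test of a single value cannot go below p = 0.333.

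The difference of Fzd2 lay between -1.93 and -1.84 and that of Fzd1 between -1.48 and -1.23 in the 13 alternative analyses that tested them. Both stayed past the threshold in all 13, which reuse the same arrays. Without G replicate 0 Fzd1 was nearest to zero, and without G replicate 1 it was farthest from it. Sfrp4 stayed between -0.78 and -0.58 and past the threshold in the 12 that tested it.

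The genes whose pattern over the 4 arrays came nearest to each receptor, by Euclidean distance between centred log2 signals, were found among 3867 genes. For Fzd2 they were Oas1a (distance 0.067), which makes an antiviral oligoadenylate, Pdpn (0.070), the mucin-like membrane protein podoplanin, and B2m (0.088), or beta-2-microglobulin, of MHC class I. For Fzd1 they were Eif2ak2 (0.055), the double-stranded RNA-activated kinase, Pcmtd1 (0.071) and Ndufa6 (0.076), a subunit of respiratory complex I. Eif2ak2, Pcmtd1 and Pdpn were under background on both MAT-LyLu arrays, so their distances have no exact size. Raising signals to the background level changed their log2 differences from -1.35, -1.41 and -1.94 to -0.78, -0.89 and -1.43. Fzd2 was itself the 187th nearest to Fzd1, at a distance of 0.57. With 4 arrays of 2 lines, these distances mostly reflect the size of the difference between the lines.

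Other genes of the pathway came from a list of 214 in 8 roles. Of these, 79 had a probe set and 69 passed the filter, each read by its brightest probe set. In limma 9 of the 69 were lower in MAT-LyLu (13.0%), 18 were higher (26.1%) and 42 did not pass. Over all 3867 genes tested the same way, 19.6% were lower and 13.7% higher. Without the listed target genes, 6 of 49 were lower (12.2%) and 10 higher (20.4%). The median log2 difference of the 69 was 0.11, against -0.02 over all genes. With quantile normalization 23 of the 69 were higher and 7 lower, when 17.2% and 17.1% of all genes were; with median scaling the counts were 23 and 8. Of 24 listed genes with several tested probe sets, 9 had probe sets that differed in call. This list was also chosen with earlier results of these data known, so its counts are a description and nothing is read from them.

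No listed Wnt ligand had a probe set, and the only other secreted antagonist with one, Sostdc1, did not pass the filter. Of 3 other receptors, 1 was lower and none higher by limma, nor was any higher at an unadjusted p under 0.05. Lgr4, a receptor for R-spondins, which strengthen Wnt signals, fell from 3742 ± 740 to 1516 ± 28.7 (SD, n = 2 each; adjusted p = 0.00019 in limma). Both MAT-LyLu arrays were under the background level, so its fall is at least 1.77-fold. Ryk, a Wnt receptor related to tyrosine kinases, had 7973 ± 330 and 8221 ± 141, with a log2 difference of 0.04 (95% interval -0.15 to 0.24). Lgr5, another R-spondin receptor, was under the background level on all 4 arrays.

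Of 12 cytoplasmic regulators, 1 fell and 2 rose. The casein kinases Csnk1a1 and Csnk1g2 rose 1.58-fold and 1.49-fold, and Ppp2cb, a catalytic subunit of protein phosphatase 2A, fell 1.56-fold (adjusted p from 0.00085 to 0.0052 in limma). Axin1, of the destruction complex, did not pass (log2 difference -0.11), and neither did Gsk3a, the other form of the Gsk3b kinase (0.14). Axin2 was under the background level on all 4 arrays. Csnk1d, another casein kinase, did not pass on its brightest probe set (log2 difference 0.10). Its other probe set, rc_AI013513_at, was 1.94-fold higher (adjusted p = 8.9e-05 in limma). Axin1, Gsk3a, Axin2 and Csnk1d were named after their values were seen.

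Of 8 nuclear factors, 2 fell and 3 rose. The chromatin proteins Ruvbl1 and Smarca4 rose 1.56-fold and 1.41-fold, and the Groucho-family genes Tle4 and Tle5 fell 1.34-fold and 1.50-fold (adjusted p from 0.0011 to 0.018 in limma). The other Ruvbl1 probe set, rc_AI043861_at, did not pass (log2 difference 0.10), and the lines overlapped there. Tle5 did not pass once MAT-LyLu replicate 0 was removed (adjusted p = 0.12 in limma); 3 of its 4 probe sets were lower. Of 3 junction genes, Tjp1 rose and Jup, or plakoglobin, a relative of beta-catenin, fell 1.20-fold. Jup passed narrowly (adjusted p = 0.044 in limma) and ranged from 0.031 to 0.16 over the alternatives. It did not pass under quantile or median scaling, with the background floor, or with any array other than G replicate 0 left out. Tjp1 lost its call without G replicate 1 (0.070) and without MAT-LyLu replicate 0 (0.077).

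Of 20 listed target genes, 3 fell and 8 rose. The fitted difference was 2-fold or more for 1 of those lower and 6 of those higher. These genes have other regulators besides this pathway. Fosl1, an AP-1 subunit, rose from 1088 ± 103 to 15800 ± 2474, and Gja1, which encodes connexin 43, from 608 ± 17.7 to 6388 ± 623. Neither gene was above background on a G array, and the rises are at least 7.59-fold and 3.08-fold. Ccnd1, or cyclin D1, was 7.90-fold higher on its brightest probe set, with 3 of 5 probe sets higher and 1 lower. Jun, another AP-1 subunit, was 3.58-fold higher on its brightest probe set, with 3 of 4 probe sets higher. Its X17163cds_s_at was 1.42-fold higher, and rc_AA944014_at did not pass (log2 difference -0.31). Adjusted p-values of Fosl1, Gja1, Ccnd1 and Jun in limma, on the brightest probe set of each, ran from 1.8e-07 to 1.5e-06.

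Of 23 genes of the other branches, 1 fell and 4 rose. The GTPase gene Rac1 rose 1.75-fold and the phospholipase C gene Plcb4 1.41-fold. Camk2d, a calcium-dependent kinase, fell 1.85-fold. The 3 adjusted p-values ran from 0.00046 to 0.0019 in limma. Plcb1, also called higher, rose 1.59-fold, but no G array and only 1 MAT-LyLu array was above background. Its rise was 1.07-fold with signals raised to the background level. Cdc42 did not pass on its brightest probe set, although 2 of its 4 probe sets were higher. Plcb1 and Cdc42 were named after their values were seen.

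**Figure D3:**
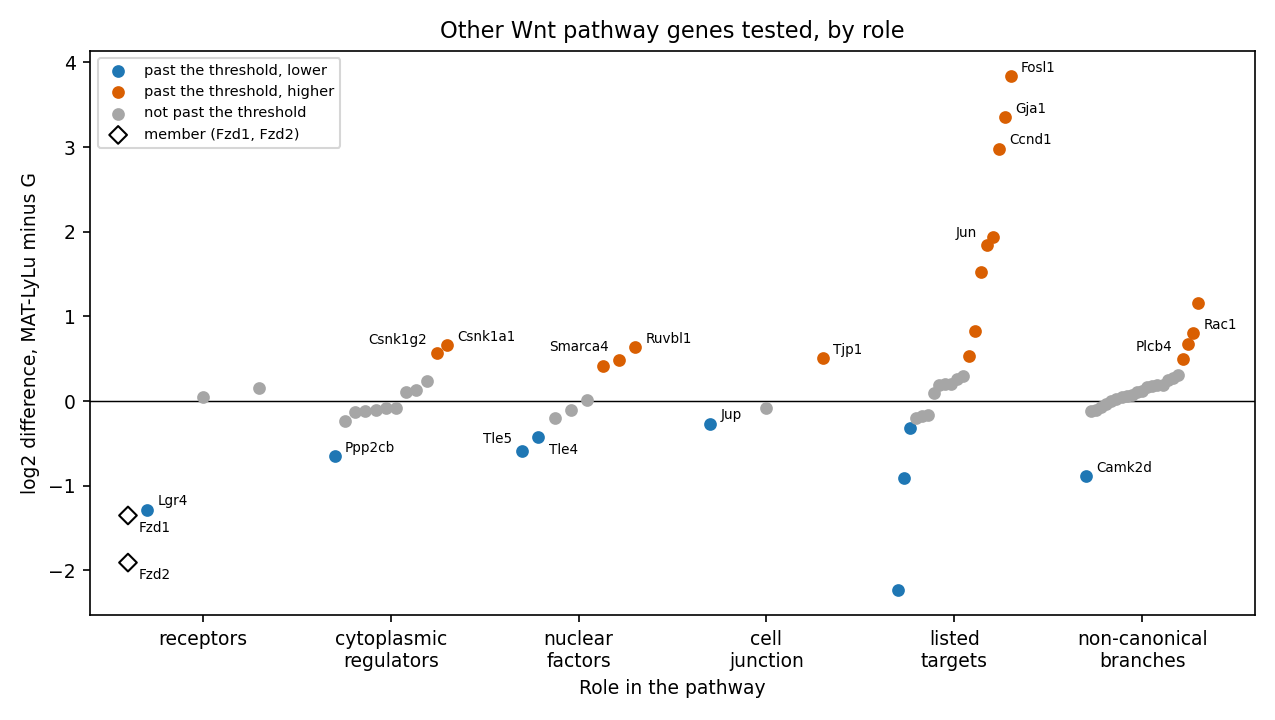
Log2 difference (MAT-LyLu minus G) of the 69 other pathway genes tested, by role, each point 1 gene; blue and orange points passed the threshold as lower or higher, grey points did not, and diamonds repeat Fzd1 and Fzd2. Lgr4 lies beside Fzd1 and is the lowest of the 3 other receptors. The highest points are the listed targets Fosl1, Gja1 and Ccnd1, and the lowest is the listed target Ccnd3. Differences of genes with 1 line under the background level, among them Fosl1, Gja1, Lgr4 and Snai2, have no exact size.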

How the data were processed

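The authors deposited 1 table of linear probe set signal intensities made with MAS5 per the submitters' processing notes, with version, scaling target and filters not given in the sources used here. Probe sets were named from the platform annotation, with symbols updated through the GRCr8 RefSeq table. The trimmed means of the arrays differed by at most 7.83%, under the limit of 10% for a further scaling, so signals were used as deposited. Values were tested as log2(signal + 16) after leaving out 59 controls and the 25% of probe sets with the lowest mean log2 signal over the 4 arrays. limma 3.58.1 in R 4.3.3 (lmFit, eBayes with an intensity trend, 2-sided, Benjamini-Hochberg) was run across all 6555 remaining probe sets; the procedure was tested on simulated data. A fold is 2 to the power of the log2 difference. The array number limits the precision.

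The members and the pathway and marker lists were chosen with earlier results of these data known. All member probe sets were named, and of the other pathway genes up to 4 per role with the smallest p among those past the threshold, plus every measured ligand, receptor and antagonist. One gene that this rule names is not reported here. For each receptor gene, the 3 nearest genes in pattern were named. Same-numbered arrays of the lines differed from their partners alike only weakly (correlation 0.159 across probe sets), and with 2 pairs the numbers were not taken as pairing. Alternatives were the pseudocount (1, 64), the filter, quantile and median scaling, no intensity trend, a replicate block, each array left out, a background floor and, for genes with several probe sets, their mean.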

Additional observations from a re-analysis of the deposited data

How the results depend on the processing

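The count of member probe sets higher in MAT-LyLu, 1 in the analysis as reported, was 0 with the lower 50% of probe sets left out, where the dimmer Gsk3b probe set was not tested, and also 0 after raising dim signals to the background level; in both, 0 member probe sets were higher at an unadjusted p under 0.05 in limma. Leaving out 1 array moved it between 0 and 1; it was 0 without MAT-LyLu replicate 0, where 1 passed unadjusted. The count of lower member probe sets was 3 in each alternative but the 50% filter, where Fzd1 and Fzd2 remained of 4 tested. Other pathway genes ranged from 14 to 23 higher and from 7 to 9 lower. The 14 came with the 50% filter, where fewer of them were tested and 14.9% of all genes were higher. The 23 came with quantile and median scaling, where 17.2% and 16.4% of all genes were higher. With the replicate block, 19 other pathway genes were higher and 9 lower, when 14.7% and 20.9% of all genes were, and the member calls were the same. For single genes, 339 values kept their direction and their side of the threshold, 11 lost their call (Gsk3b, Jup, Tjp1 and Tle5) and 6 changed sign. The 6 were all of probe sets that did not pass. Apc L19304_s_at became 0.029 with quantile and 0.027 with median scaling and 0.045 with the background floor. With 1 array left out, Apc D38629_at ranged from -0.026 (without MAT-LyLu replicate 0) to 0.13. Gsk3b X53428cds_s_at ranged from -0.082 (without MAT-LyLu replicate 1) to 0.155, and was -0.032 without G replicate 1. Signals near background limit Sfrp4, the dimmer Gsk3b probe set and 2 of the 3 Apc probe sets.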
